A study of Rattus norvegicus with 12 samples.

Results

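The microRNAs (miRs) described here are 5 that are known from leukocytes, measured in the dorsal root ganglia (DRG) of rats with a spared nerve injury (SNI). They are miR-142-3p, miR-223, miR-155, miR-146a and miR-150, whose assays carry the mouse names mmu-miR-142-3p, mmu-miR-223, mmu-miR-155, mmu-miR-146a and mmu-miR-150, and they make up 5 of the 154 miRs with a value in every array. They were chosen by name, from what is known of their cell types, but with earlier results of these data known. Of the 6 names searched mmu-miR-146b had no row. All rats were adult male Sprague-Dawley rats, no group is labelled with a transgene, and SNI was performed under isoflurane anesthesia. In Sural-SNI the common peroneal and tibial branches of the sciatic nerve were ligated and cut, which spared the sural branch. In Tibial-SNI the common peroneal and sural branches were ligated and cut, which spared the tibial branch. In Sham the nerve was only exposed. DRG of the injured side were taken at Day 23, and each of the 3 injury groups holds 4 TaqMan arrays. Of these, 2 are of L3-DRG and the other 2 of L4-DRG, with the numbers replicate 1 and replicate 2 at either level. The arrays were made to find miRs that differ between these models of neuropathic pain.

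MiRs bind messenger RNAs mainly through their seed, the bases 2 to 8 from the 5′ end, and lower the output of their targets. After a nerve is cut, macrophages and other leukocytes gather in the DRG of that nerve, where resident macrophages already lie close to the neuronal somata and satellite glia. MiR-142-3p is made by nearly all blood-derived cells, miR-223 is abundant in neutrophils and monocytes, miR-150 marks mature lymphocytes, miR-155 is induced in activated macrophages and lymphocytes, and miR-146a is induced by NF-κB and dampens the signals of Toll-like receptors. Of these, miR-142-3p and miR-223 are the most restricted to blood-derived cells, while miR-146a and miR-150 are also made by other cells. The rats were perfused with artificial cerebrospinal fluid before the DRG were taken, a step meant to lower the share of miRs from blood.

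The mature rat sequences that the assays of these miRs stand for are printed here with the seed in capitals, because the seeds set apart the targets of each member. They come from RefSeq on the build GRCr8, where 4 of the 5 measured members had an entry. That of miR-142-3p is at chr10:73055155-73055177 (+), within the bounds of the protein-coding gene Tspoap1. That of miR-223 is at chrX:65151450-65151470 (+), within the long non-coding RNA LOC120099372. That of miR-155 is at chr11:37261117-37261139 (+), within its host transcript Mir155hg, a long non-coding RNA. That of miR-146a is at chr10:28350053-28350074 (−), within the long non-coding RNA LOC134480673. MiR-146b, which had no row among the miRs detected in every array, is given for its likeness to miR-146a.
miR-142-3p: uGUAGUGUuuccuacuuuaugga
miR-223-3p: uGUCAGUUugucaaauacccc
miR-155-5p: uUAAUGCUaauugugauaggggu
miR-146a-5p: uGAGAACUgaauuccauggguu
miR-146b-5p: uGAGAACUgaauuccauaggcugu
The 4 measured members shown have 4 different seeds, and any pair of them had the same base at only 2 or 3 of the seed positions. Among the 693 mature rat miR names of the RefSeq table, no other carried the seed of miR-142-3p, miR-223 or miR-155. The seed of miR-146a was shared with miR-146b alone. Counted from 1 at the 5′ end of miR-146a, the 22 bases of miR-146a differ from those of miR-146b by G18A and U21C.

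All 5 members were detected in all 12 arrays, as was every miR that the authors kept. Each well gives a Ct, the PCR cycle at which its signal crosses a set level. Less Ct therefore means more miR, and 1 cycle is a 2-fold difference. Order among assays is only a rough guide to abundance, since assays differ in efficiency. In Sham the mean Ct was 24.3 ± 0.485 (SD, n = 4) for miR-150, the eighth lowest of the 154 miRs, and 24.8 ± 1.28 for miR-146a, the thirteenth lowest. MiR-223 followed with 26.7 ± 2.398 (rank 34 of 154), miR-155 with 29.2 ± 2.10 (rank 74) and miR-142-3p with 31.0 ± 2.55 (rank 118). The lymphocyte miR and the NF-κB-induced miR thus gave early signals in uninjured DRG, and the miR made by nearly all blood-derived cells gave a late one. Over the single arrays miR-150 and miR-146a overlapped, with ranks of 5 to 16 and 5 to 19, and miR-223 reached from rank 13 to 56. MiR-155, from 58 to 98, was later than miR-223 in rank throughout, and overlapped with miR-142-3p, from 78 to 139. The miRs of sensory neurons miR-182 and miR-183 had Ct values of 22.3 to 25.1 and 26.5 to 29.2. Their presence in every array was fixed by the authors' filter and is no check of the tissue label. Of 6 neuronal miRs searched, these 2 had a row.

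To compare arrays, −ΔCt was computed as the mean Ct of 3 small RNA references (MammU6, snoRNA135 and U87) minus the Ct of the miR, so that a higher value is more miR on a log2 scale. The largest source of spread was the replicate number. The references themselves moved with it: snoRNA135 had a mean Ct of 32.9 in the 6 arrays of replicate 1 and 28.9 in those of replicate 2, U87 27.3 and 25.8, and MammU6 17.6 and 18.5. The labels do not say what a number stands for, nor that the arrays came from separate rats, so p-values measure the spread between these arrays only. RNA from a whole DRG also cannot tell more leukocytes from more of a miR per leukocyte.

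**Figure D1:**
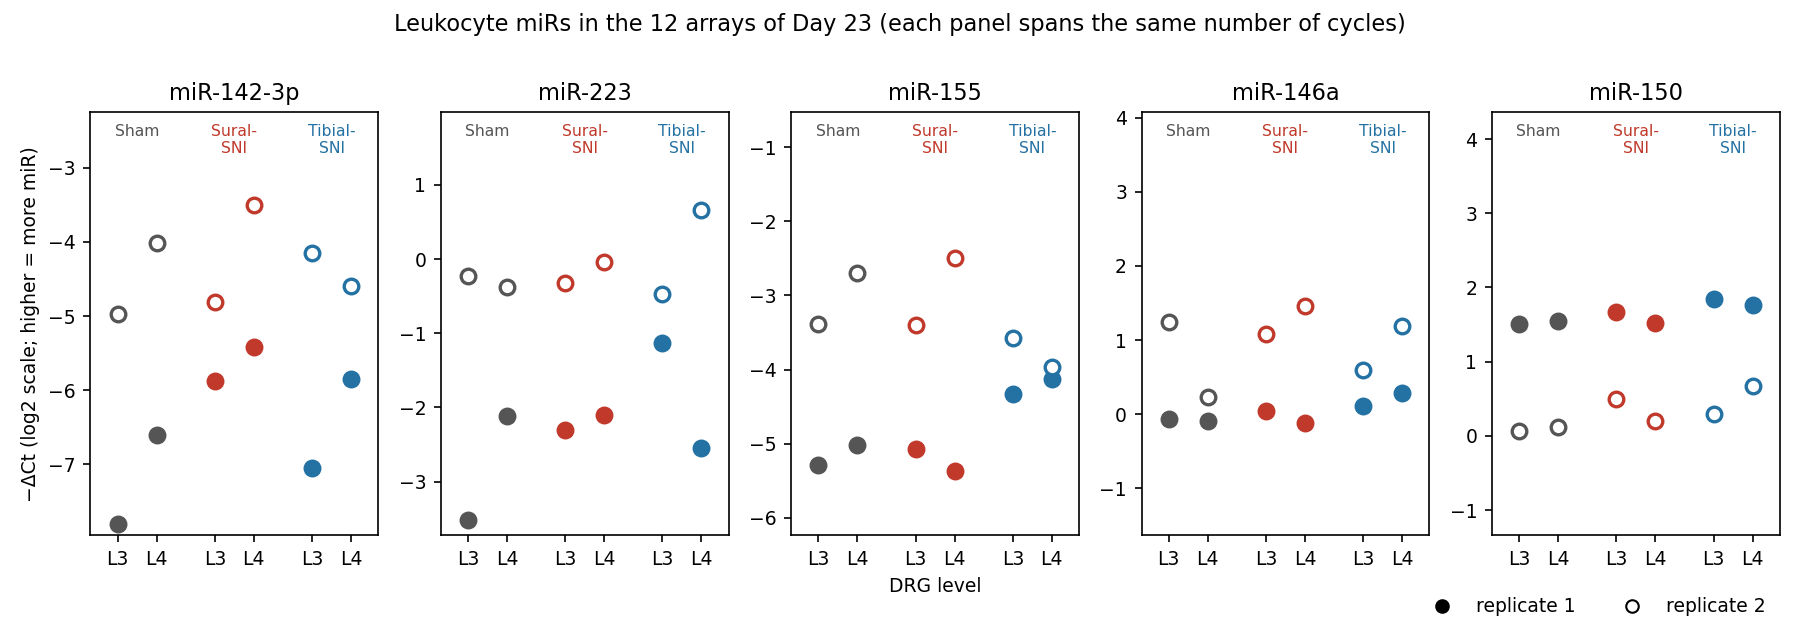
The −ΔCt of the 5 leukocyte miRs (y axis, log2 scale, higher is more miR) in each of the 12 arrays, by DRG level (x axis, L3 and L4) and injury group (colour); filled points are replicate 1 and open points replicate 2. The filled and open points separate for every member but miR-146a, with the open points above for miR-142-3p, miR-223 and miR-155 and below for miR-150. The 3 injury groups overlap in each panel, which could not be otherwise where filled and open points separate, since each group holds both.

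In miR-142-3p the −ΔCt of replicate 1 was −7.81 and −6.60 in Sham (L3-DRG, then L4-DRG), −5.88 and −5.42 in Sural-SNI, and −7.04 and −5.85 in Tibial-SNI. In replicate 2 the values were −4.97 and −4.02 in Sham, −4.81 and −3.50 in Sural-SNI, and −4.14 and −4.59 in Tibial-SNI. The lowest array of replicate 2 thus lay above the highest of replicate 1, and the lowest of all was the L3-DRG Sham array of replicate 1. MiR-223 was split likewise, with replicate 1 at −3.51 and −2.12 in Sham, −2.31 and −2.11 in Sural-SNI, and −1.14 and −2.55 in Tibial-SNI. Replicate 2 of miR-223 gave −0.23 and −0.37 in Sham, −0.32 and −0.04 in Sural-SNI, and −0.47 and 0.67 in Tibial-SNI. Its lowest array was again the L3-DRG Sham array of replicate 1, and its highest the L4-DRG Tibial-SNI array of replicate 2. MiR-155 in replicate 1 gave −5.28 and −5.02 in Sham, −5.07 and −5.36 in Sural-SNI, and −4.33 and −4.12 in Tibial-SNI. In replicate 2 it gave −3.39 and −2.69 in Sham, −3.39 and −2.50 in Sural-SNI, and −3.57 and −3.96 in Tibial-SNI. The Tibial-SNI arrays were thus the highest of replicate 1 and the lowest of replicate 2.

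MiR-146a was the most even of the members with higher values in replicate 2. It gave −0.06 and −0.09 in Sham, 0.05 and −0.12 in Sural-SNI, and 0.11 and 0.29 in Tibial-SNI in replicate 1. In replicate 2 it gave 1.24 and 0.23 in Sham, 1.09 and 1.46 in Sural-SNI, and 0.60 and 1.19 in Tibial-SNI. The L4-DRG Sham array, at 0.23, was the lowest of replicate 2 and lay below the highest of replicate 1. MiR-150 ran the other way, with 1.503 and 1.55 in Sham, 1.67 and 1.52 in Sural-SNI, and 1.85 and 1.76 in Tibial-SNI in replicate 1. In replicate 2 it gave 0.07 and 0.12 in Sham, 0.50 and 0.20 in Sural-SNI, and 0.29 and 0.67 in Tibial-SNI. Within a number the 6 arrays of miR-150 lay close together, with an SD of 0.142 in replicate 1 and 0.234 in replicate 2, the tightest of the members in replicate 1 and replicate 2 alike.

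Between the numbers, the mean −ΔCt of replicate 2 minus that of replicate 1 was 2.09 for miR-142-3p, 2.16 for miR-223, 1.61 for miR-155, 0.94 for miR-146a and −1.33 for miR-150. Over all 154 miRs the median was 0.52, with 101 miRs higher and 53 lower in replicate 2. In 4 of the 5 members the arrays of replicate 1 and replicate 2 did not overlap, as in 39.6% of all miRs, and miR-150 was the member with all arrays of replicate 1 above all of replicate 2, as in 10.4%. In raw Ct all 5 members came earlier in replicate 2, by 3.63 cycles for miR-142-3p, 3.69 for miR-223, 3.15 for miR-155 and 2.47 for miR-146a, but by only 0.20 for miR-150, against a median of 2.05 over all miRs. The injury groups overlapped in each of the 5 members for every pair of groups. Each group holds arrays of both numbers, so groups cannot separate where the numbers do not overlap. For 4 of the 5 members, and for 39.6% of all miRs, the overlap of the groups therefore says nothing about the injury. Few miRs of the table had groups that separated (1.95% for Sham and Sural-SNI, 1.3% for Sham and Tibial-SNI, 1.3% for the SNI groups). What differed between the numbers was not tested.

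**Figure D2:**
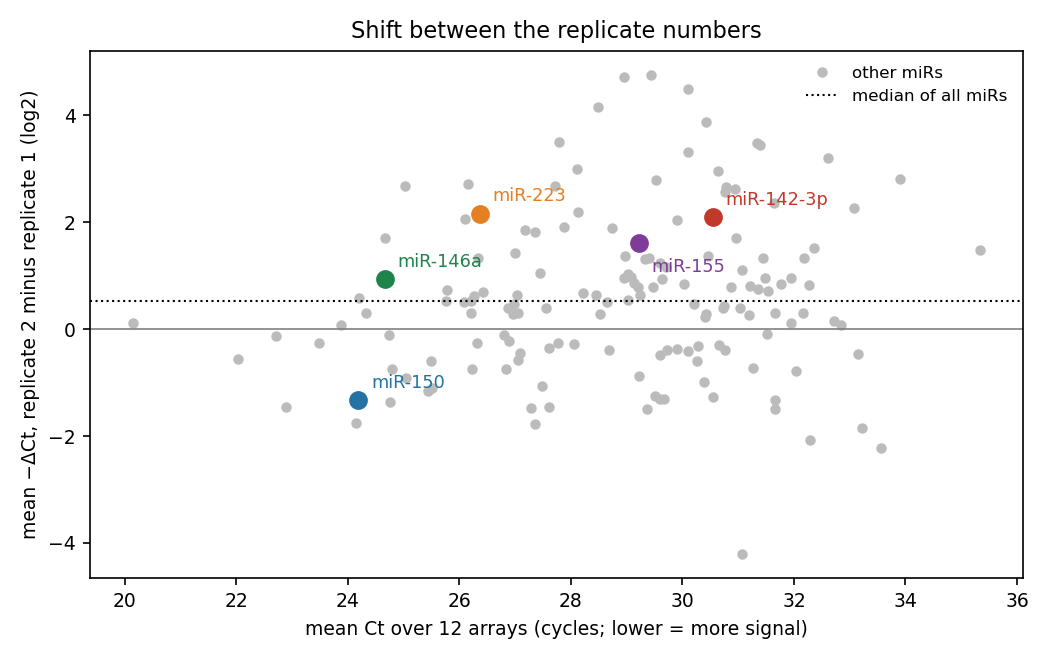
Mean −ΔCt of the 6 arrays of replicate 2 minus that of the 6 arrays of replicate 1 (y axis, log2) against the mean Ct over the 12 arrays (x axis, cycles), with 1 point for each of the 154 miRs, the members in colour. The other members lie above the median of 0.52 (dotted line) and miR-150 lies at −1.33.

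Each SNI array was set against the Sham array that shares its DRG level and number, giving a log2(fold change). The tests were limma fits of −ΔCt on the 12 arrays, with DRG level in the model and Benjamini-Hochberg adjustment over the 154 miRs. Because same-numbered arrays deviated together, the results are also given with a replicate block. The block compares injury groups within the same level and number, levels within the same injury group and number, and, in the test of whether the SNI response differed between levels, arrays within the same number. It left the differences unchanged and lowered the standard error (SE) of all 5 members in each of the 6 comparisons.

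In Sural-SNI, miR-142-3p had the largest mean of the members. Its log2(fold change) was 1.93 and 0.16 in replicates 1 and 2 of L3-DRG and 1.18 and 0.51 in those of L4-DRG. All 4 arrays were thus above Sham, as in 10.4% of all miRs, and both values of replicate 1 exceeded both of replicate 2. The mean was 0.95 ± 0.78 (SD, n = 4), a 1.93-fold level and the sixth highest of the 154 miRs, whose median was 0.15. In limma the SE was 0.88 and the adjusted p 1.00. With the block the SE was 0.36, the 95% confidence interval 0.13 to 1.76, the unadjusted p 0.0277 and the adjusted p 0.666. The fits with an array left out had no block, so leaving out a Sham array unbalances the replicate numbers. In them the miR-142-3p difference was 0.36 or 0.52 without the L3-DRG or L4-DRG Sham array of replicate 1. Without that of replicate 2 it was 1.42 or 1.49.

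In the other members the Sural-SNI means were smaller than their SDs. MiR-223 gave 1.20 and −0.09 in L3-DRG and 0.01 and 0.34 in L4-DRG, a mean of 0.36 ± 0.59 (SD, n = 4) in which the replicate 1 array of L3-DRG stood above the others. MiR-146a gave 0.11 and −0.16 in L3-DRG and −0.03 and 1.23 in L4-DRG, a mean of 0.29 ± 0.64 in which the replicate 2 array of L4-DRG stood above the others. These high values, 1.20 and 1.23, were both set against the lowest Sham array of their miR within that number. MiR-150 gave 0.17 and 0.43 in L3-DRG and −0.03 and 0.08 in L4-DRG, a mean of 0.16 ± 0.19. MiR-155 was nearest to Sham, with 0.21 and −0.0040 in L3-DRG and −0.35 and 0.19 in L4-DRG, a mean of 0.013 ± 0.26. None of the 5 members had an adjusted p under 0.05 in limma, where the share of all miRs was 0.0%, and the count at an unadjusted p under 0.05 was also 0 of 154. With the block, 1 of the 5 members (miR-142-3p) passed an unadjusted p of 0.05, as did 6.49% of all miRs, or 5.84% counted among the higher ones alone, and no miR passed after adjustment. For miR-155 the 95% interval with the block ran from −0.93 to 0.96, so changes anywhere in that range were compatible with these arrays.

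**Figure D3:**
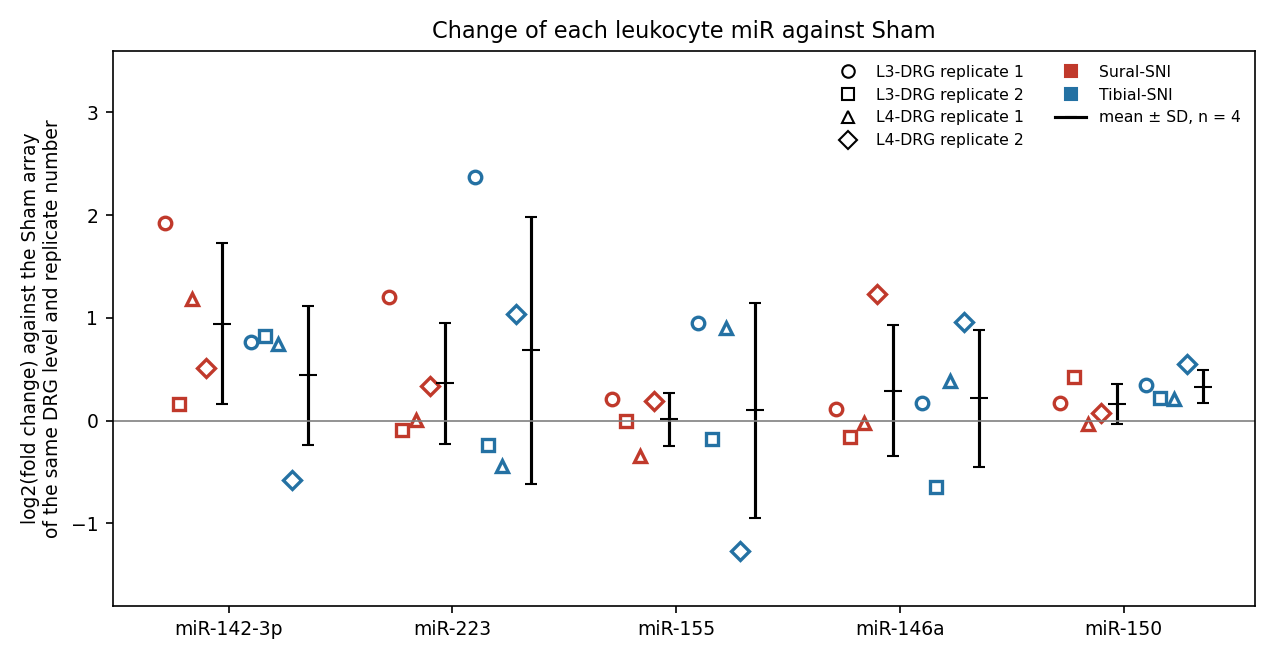
Log2(fold change) of each member (x axis) in each Sural-SNI (red) and Tibial-SNI (blue) array against its matched Sham array (y axis); symbols give the level and number, and black bars the mean ± SD of 4 arrays. All 4 Sural-SNI values of miR-142-3p and all 4 Tibial-SNI values of miR-150 lie above 0, and the Tibial-SNI values of miR-155 fall into a pair above 0 for replicate 1 and a pair below 0 for replicate 2.

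In Tibial-SNI the members with the largest means were miR-223 and miR-142-3p, and miR-150 had the smallest SD. MiR-223 gave 2.37 and −0.24 in L3-DRG and −0.44 and 1.04 in L4-DRG. The mean of 0.69 ± 1.30 (SD, n = 4) came from 1 array of each level, and 2 of 4 arrays were below Sham. In the fits without the block that leave out 1 array, the miR-223 difference moved with the number left out. It was −0.0021 or 0.43 without the L3-DRG or L4-DRG Sham array of replicate 1, and 1.23 or 1.08 without that of replicate 2. MiR-142-3p gave 0.76 and 0.83 in L3-DRG and 0.75 and −0.58 in L4-DRG, a mean of 0.44 ± 0.68, with 3 values close together and the replicate 2 array of L4-DRG apart from them. MiR-150 gave 0.35 and 0.22 in L3-DRG and 0.21 and 0.55 in L4-DRG. All 4 arrays of miR-150 were above Sham, as in 18.2% of all miRs, and the mean was 0.33 ± 0.16, a 1.26-fold level against a median of 0.23 over all miRs. The miR-150 difference was 0.097 with the mean Ct of all miRs as the reference. In the fits without the block that leave out 1 array, it lay between 0.053 and 0.65. These ends came without the L3-DRG replicate 2 array of Sham and of Tibial-SNI, in that order.

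MiR-146a gave 0.17 and −0.65 in L3-DRG and 0.39 and 0.96 in L4-DRG, a mean of 0.22 ± 0.67. MiR-155 gave 0.95 and −0.18 in L3-DRG and 0.90 and −1.27 in L4-DRG, a mean of 0.10 ± 1.05. The miR-155 values divided by number and not by level: the mean was 0.92 within replicate 1 and −0.72 within replicate 2. No member had an adjusted p under 0.05 in limma (0.997 for each), where the share of all miRs was 0.0%, or an unadjusted p under 0.05, where it was 0.649%. With the block the adjusted p was 0.452 for miR-150, 0.481 for miR-223 and 0.640 for miR-142-3p. None of the 5 members then passed an unadjusted p of 0.05, against 9.74% of all miRs. Intervals with the block were −0.0877 to 0.75 for miR-150, −0.27 to 1.64 for miR-223 and −0.37 to 1.26 for miR-142-3p.

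Both SNI groups were also pooled against Sham, which uses the same 4 Sham arrays as the comparisons above. Over the 8 SNI arrays miR-142-3p was above its Sham array in 7 and miR-150 in 7, as were 14.9% of all miRs in 7 or more. The mean log2(fold change) was 0.69 ± 0.73 (SD, n = 8) for miR-142-3p, 0.52 ± 0.95 for miR-223, 0.25 ± 0.60 for miR-146a, 0.25 ± 0.19 for miR-150 and 0.06 ± 0.71 for miR-155. In the fits without the block, leaving out the L3-DRG or L4-DRG Sham array of replicate 1 gave miR-142-3p 0.105 or 0.26. Leaving out that of replicate 2 gave 1.17 or 1.23. All 5 means were above 0, with a median of 0.25, though miR-155 was at −0.14 with the mean Ct of all miRs as the reference, and so were those of 121 of all 154 miRs, with a median of 0.21. In limma the adjusted p was 0.995 for each member, with 0.0% of all miRs past 0.05. With the block it was 0.675 for miR-142-3p (unadjusted p = 0.0534), miR-223 and miR-150. MiR-142-3p missed an unadjusted p of 0.05 there, which 5.19% of all miRs passed.

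The models were compared directly, unpaired, on the log2(fold change) values of the 8 SNI arrays. The largest difference of the members was that of miR-142-3p, which was lower in Tibial-SNI by a mean of −0.51 (SE 0.48, limma adjusted p = 0.995), the direction of 3 of the 4 matched pairs, as in 18.8% of all miRs. Those pairs gave −1.17 and 0.67 in L3-DRG and −0.43 and −1.09 in L4-DRG, so that 1 pair ran against the rest. MiR-223 was higher in Tibial-SNI by 0.32 (SE 0.64) and miR-150 by 0.17 (SE 0.24). MiR-155 differed by 0.09, but by 0.99 within replicate 1 and −0.82 within replicate 2. MiR-146a differed by −0.07, with 0.24 within replicate 1 and −0.38 within replicate 2. No member passed an adjusted p of 0.05 in limma, against 0.649% of all miRs, and none an unadjusted one, against 2.6%, or 3.9% with the block. The 95% intervals were −1.61 to 0.60 for miR-142-3p and −1.13 to 1.77 for miR-223, and −0.38 to 0.73 for miR-150. With the block they were −1.41 to 0.40, −0.50 to 1.14 and −0.34 to 0.68 in the same order, −1.10 to 1.28 for miR-155 and −0.64 to 0.50 for miR-146a. The interval of miR-150 in both fits, and that of miR-146a with the block, held no 2-fold difference.

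L4-DRG hold somata of the cut sciatic branches, whereas the saphenous nerve, which was not injured, has its somata in L3-DRG. The level of miR-142-3p was higher in L4-DRG than in L3-DRG in 5 of 6 pairs of the same group and number, as in 7.14% of all miRs. The differences in miR-142-3p were 1.20 and 0.95 in Sham, 0.46 and 1.31 in Sural-SNI, and 1.19 and −0.45 in Tibial-SNI, for replicates 1 and 2. Both Sham pairs were thus among those higher in L4-DRG, and the pair that ran against the rest was Tibial-SNI replicate 2. The mean was 0.78 ± 0.67 (SD, n = 6 pairs), the fifth highest of the 154 miRs, whose median was −0.011. In limma the SE was 0.72 and the adjusted p 0.987. With the block the interval was 0.17 to 1.38, the unadjusted p 0.0185 and the adjusted p 0.506. MiR-142-3p was the 1 miR of all 154 that was higher in L4-DRG at an unadjusted p under 0.05 with the block (0.649% of all miRs), while 8 were lower (5.19%). In both directions together that was 5.84%, or 1.95% without the block, where no member passed. After adjustment no member passed in either fit, where 0.0% of all miRs did.

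The other members showed smaller differences between the levels. MiR-223 differed by 0.24 ± 1.00 (SD, n = 6 pairs), with 1.397 and −0.14 in Sham, 0.20 and 0.29 in Sural-SNI, and −1.41 and 1.13 in Tibial-SNI. The Tibial-SNI pairs were the lowest and the second highest of miR-223, so the levels had no steady order. MiR-155 differed by 0.23 ± 0.51 and was higher in L4-DRG in 4 of 6 pairs. MiR-146a differed by −0.012 ± 0.56 and miR-150 by −0.011 ± 0.23, and each was higher in L4-DRG in 3 of 6 pairs. For miR-150 the interval with the block was −0.40 to 0.38.

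The last comparison asked whether the response to SNI differed between the levels, as an interaction over all 12 arrays. The median over all miRs was −0.43, and only 35 of all 154 miRs were above 0. Likewise 4 of the 5 members were below 0, though with the mean Ct of all miRs as the reference miR-150 was at 0.31 and miR-155 at 0.024. The interaction was −0.58 for miR-223, −0.45 for miR-142-3p, −0.38 for miR-155 and −0.09 for miR-150. MiR-146a was the exception, with 0.77, the sixth highest of the 154 miRs. Its log2(fold change) over both SNI groups was 0.64 in L4-DRG and −0.13 in L3-DRG. The Sham pair of replicate 2 differed most, with miR-146a at −1.02 in L4-DRG relative to L3-DRG, against −0.03 in the Sham pair of replicate 1. In the fits without the block, the miR-146a interaction was 0.113 without the L3-DRG Sham array of replicate 2, and 1.42 without that of replicate 1. In limma the miR-146a interaction had an SE of 0.83 and an adjusted p of 0.995, and with the block an SE of 0.41 and an adjusted p of 0.424 (unadjusted p = 0.0961). No member passed an adjusted p of 0.05 in either fit (0.0% of all miRs) or an unadjusted one, where 1.3% of all miRs did, or 11.0% with the block, all of the latter with a negative sign.

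**Figure D4:**
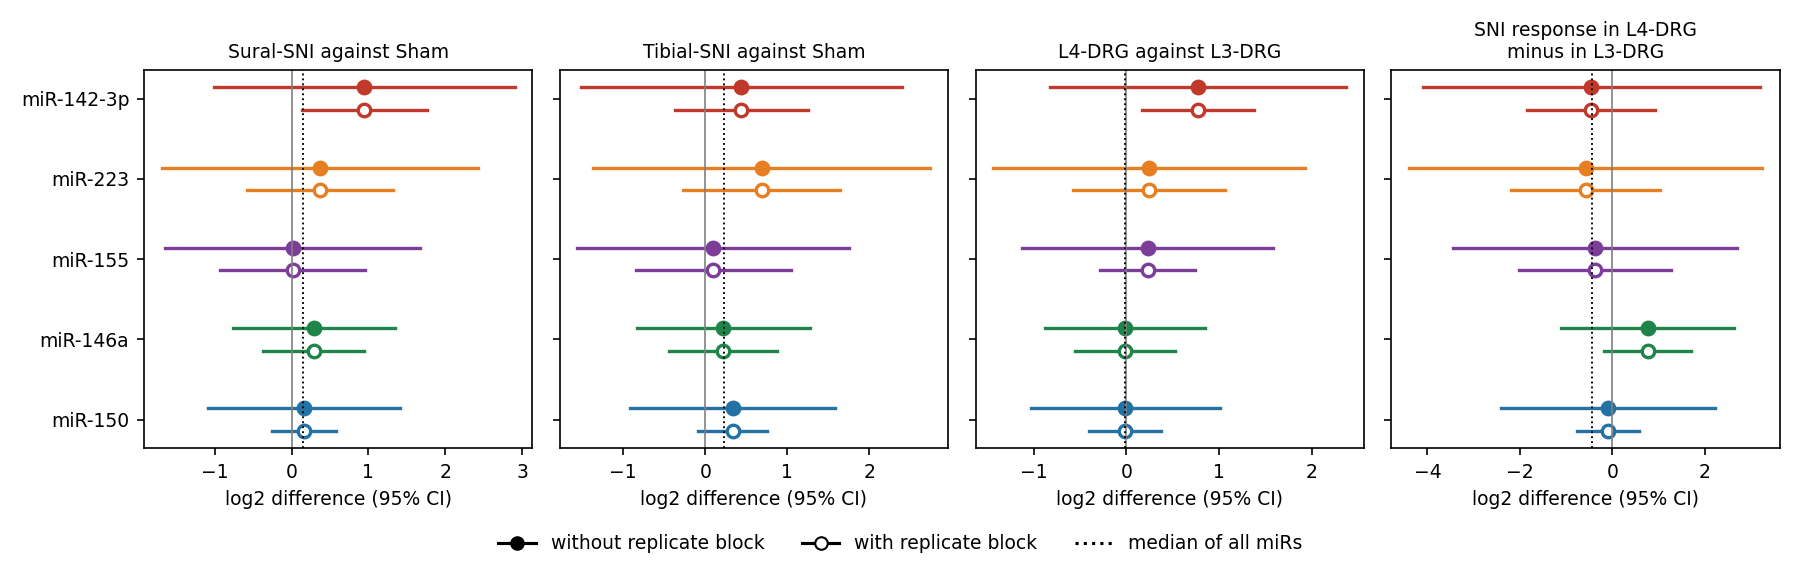
Log2 difference of each member with its 95% confidence interval (x axis) in 4 comparisons, from limma without (filled) and with (open) the replicate block; the dotted line is the median of all 154 miRs. The intervals with the block lie above 0 for miR-142-3p in Sural-SNI (0.13 to 1.76) and in L4-DRG (0.17 to 1.38), and with the 3 references miR-146a is the 1 member with a positive interaction, which miR-150 (0.31) and miR-155 (0.024) also had with all miRs as the reference.

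The members did not move as 1 group across arrays. With the mean of each level and number removed, the Pearson correlation over the 12 arrays between pairs of members had a median of 0.12 over the 10 pairs, against 0.18 over all pairs of miRs. These points share libraries and references, and the values are a description only. The highest was 0.56 between miR-150 and miR-223, and miR-142-3p had 0.11 with miR-223 and 0.24 with miR-155. The miRs most like miR-142-3p were miR-125b-5p (r = 0.83), miR-200c (0.79) and miR-30d (0.77), and those most like miR-223 were miR-449a (0.84), miR-335-3p (0.80) and miR-27a (0.79). Most like miR-155 were mmu-miR-1 (0.76), miR-543 (0.73) and miR-30b (0.67). Those nearest to miR-146a were miR-320 (0.77), rno-miR-351 (0.62) and miR-139-5p (0.58), and those nearest to miR-150 let-7g (0.85), miR-191 (0.83) and miR-24 (0.82). No member was among the 3 miRs most like another member.

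Other miRs of leukocytes and of the macrophage response were read from lists. A listed miR without a row was either not detected in every array or not on the card. Of 5 other leukocyte miRs, 2 had a row, and no call was made in either SNI group. The mean log2(fold change) in Sural-SNI, then Tibial-SNI, was 0.21 ± 0.29 and 0.28 ± 0.27 for miR-342-3p (SD, n = 4 each), and 0.06 ± 0.87 and 0.37 ± 0.79 for miR-181a. Of 7 miRs of the macrophage response, 5 had a row (miR-132, miR-9, miR-125a-5p, miR-125b-5p and let-7e), and after adjustment none passed. The highest was miR-132, a CREB-induced miR of neurons and activated macrophages, at 0.81 ± 0.87 and 1.37 ± 1.41 in the same order (Tibial-SNI, limma with the block, unadjusted p = 0.0199, adjusted p = 0.410). MiR-125b-5p had 0.56 ± 0.60 and 0.36 ± 0.52, also without a call. In Sural-SNI the macrophage list had a median of 0.19, against 0.15 over all miRs, and in Tibial-SNI one of 0.06, against 0.23.

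Markers of other cells that a DRG with its capsule and vessels could hold were read in the same way, and no assay of any of these lists passed after adjustment in the SNI comparisons. Of 3 red blood cell miRs 1 had a row, miR-486, with means of 0.37 ± 0.87 and 0.23 ± 0.89 (SD, n = 4 each) and with 2 of 4 arrays above Sham in each. Its −ΔCt spanned −2.77 to −2.001 in Sham, −3.20 to −0.69 in Sural-SNI, and −3.32 to −0.71 in Tibial-SNI, so the groups overlapped. All 4 skeletal muscle assays, for 3 of the 4 listed miRs, were on average below Sham in Sural-SNI (median −0.51), where 106 of all 154 miRs were above it. In Tibial-SNI they were on average above it (median 0.72), as were 125 of all 154 miRs. There mmu-miR-1 was at −0.087 with all miRs as the reference, and rno-miR-1 had 0.86 ± 2.06. The mean of the 4 assays was above its own Sham array in 2 of 4 Tibial-SNI arrays and in 0 of 4 Sural-SNI arrays. Both smooth muscle miRs were likewise below Sham in Sural-SNI and above it in Tibial-SNI on average (medians −0.18 and 0.79). The higher of them was miR-143 in Tibial-SNI (0.90 ± 0.41, limma with the block, unadjusted p = 0.0211, adjusted p = 0.410). The mean −ΔCt of the skeletal muscle assays ran from −3.23 to −2.64 in Sham and reached −0.06 in 1 Tibial-SNI array. The endothelial miRs, both measured, had means of −0.17 and 0.25 (miR-126-3p) and of 0.12 and 0.50 (miR-126-5p) in Sural-SNI and Tibial-SNI. Of 6 neuronal miRs 2 had a row, miR-182 with −0.42 and −0.14 and miR-183 with 0.05 and −0.11, and of 2 glial miRs 1, miR-338-3p, with 0.54 ± 0.72 and −0.48 ± 1.48. Whether blood, muscle or vessel content had a part in the values of the leukocyte miRs was not tested.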

How the data were processed

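Single DRG of 12 rat samples were run on TaqMan rodent microRNA cards for 40 cycles. The authors kept the miRs detected in every array and deposited their Ct values, which are on a log2 scale and not normalized, without a Ct limit. A second deposited table holds the authors' own fold changes against Sham and was not used. The Ct table has 160 wells, of which 154 are miRs and the others references (4 wells of MammU6, averaged first). Groups, levels and numbers came from the sample labels.

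The tests ran in limma 3.58.1 under R 4.3.3 (lmFit and eBayes, two-sided), with Python 3.11.15 and pandas 2.3.3 for the rest and matplotlib 3.10.9 for the plots. The fits were tested on simulated data in which the raised miRs changed by more than any member difference reported here. That run therefore does not address differences of the size seen. Deviations of same-numbered arrays from their group means correlated with r from 0.642 to 0.775 over 6 pairs of groups, 3 at each level, so the numbers were taken to pair the arrays; no label says what they share. Alternatives were each reference alone, the mean Ct of all miRs as the reference, Ct limits of 35 and 32, a variance trend, the replicate block, a random block, the methods' t-test, exact permutation tests and leaving out each array. MiR-142-3p, whose highest Ct was 34.0, has no value under the limit of 32. The miRs named are the members, the references, the 3 miRs most like each member and those of the marker lists. Members and lists were chosen with earlier results of these data known. Ct values carry no molecule count, so the SEs come from the number of arrays and the spread between them.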

Additional observations from a re-analysis of the deposited data

Results flagged for a closer look

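Of 25 groups of 4 values examined, 1 held a value that stood apart from the others, and chance alone flags about 1 group in 20. It was the log2(fold change) of miR-142-3p in Tibial-SNI, where the L4-DRG array of replicate 2 gave −0.58 while the other 3 gave 0.75 to 0.83. The gap to the nearest value was 0.945 of the whole range, above the critical 0.829. The same L4-DRG array was also in the Tibial-SNI pair that ran against the rest in the comparison of L4-DRG with L3-DRG (−0.45). The log2(fold change) of miR-155 was lowest in that array too, at −1.27, while those of miR-223 and miR-146a were 1.04 and 0.96.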

How the results depend on the processing

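No member passed an adjusted p of 0.05 under any alternative, in 289 values from other settings and 360 with an array left out. In 14 of the former and 71 of the latter the sign turned, and the cause was not tested. The 14 values were, with all miRs as the reference, −0.14 for miR-155 in Sural-SNI, in Tibial-SNI and in both, −0.017 for miR-146a in Tibial-SNI, 0.018 for miR-150 and 0.017 for miR-146a between the levels, and 0.31 for miR-150 and 0.024 for miR-155 in the interaction. With MammU6 alone they were −0.067 for miR-155 between the SNI groups and 0.17 for miR-150 and 0.17 for miR-146a between the levels. With snoRNA135 alone they were −0.057 for miR-155 in Sural-SNI and 0.0995 for miR-150 in the interaction, and with U87 alone 0.019 for miR-146a between the SNI groups. With all miRs as the reference, the median of all miRs moved in Sural-SNI from 0.15 to −0.0029, in Tibial-SNI from 0.23 to −0.0040 and in the interaction from −0.43 to −0.030, and MammU6 alone moved it between the levels from −0.011 to 0.17.

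When each array was left out of the fits without the block, the sign turned within these ranges. Against Sham, between the levels and in the interaction, leaving out an array of the groups compared unbalances the replicate numbers. Part of the shift between the numbers then enters the difference, so these ranges do not show the influence of an array alone. Against Sham in Sural-SNI they were −0.12 to 0.45 for miR-150, −0.54 to 0.54 for miR-155, −0.32 to 0.91 for miR-223 and −0.028 to 0.63 for miR-146a. In Tibial-SNI they were −0.18 to 0.98 for miR-142-3p, −0.30 to 0.58 for miR-155, −0.0021 to 1.36 for miR-223 and −0.024 to 0.56 for miR-146a. In both groups they were −0.032 to 0.53 for miR-150, −0.35 to 0.54 for miR-155 and −0.16 to 1.07 for miR-223. Between the SNI groups they were −0.30 to 0.60 for miR-155, −0.24 to 0.70 for miR-223 and −0.32 to 0.24 for miR-146a. Between the levels they were −0.23 to 0.18 for miR-150, −0.14 to 0.58 for miR-155, −0.21 to 0.69 for miR-223 and −0.22 to 0.22 for miR-146a. In the interaction they were −1.87 to 0.96 for miR-142-3p, −0.80 to 0.63 for miR-150, −1.54 to 0.79 for miR-155 and −2.22 to 1.07 for miR-223. MiR-142-3p kept its sign in Sural-SNI (0.36 to 1.49), in both SNI groups (0.105 to 1.23), between the levels (0.38 to 1.19) and between the SNI groups (−0.90 to −0.17). The sign was also kept by miR-150 in Tibial-SNI (0.053 to 0.65) and between the SNI groups (0.070 to 0.30), and by miR-146a in both SNI groups (0.095 to 0.60) and in the interaction (0.113 to 1.42).

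Over all miRs, the 1 call of Tibial-SNI against Sural-SNI, miR-325, which is no member and is named after its values were seen, became 0 with each single reference, with all miRs as the reference, with the Ct limits, with the mean of the 2 Sham arrays, with all 12 arrays in one fit, with the replicate block and without any single array (0 to 0), and stayed at 1 with a variance trend. The paired analysis by the replicate block gave 0 calls in all 6 comparisons and raised the count at an unadjusted p under 0.05 from 0 to 10 in Sural-SNI, from 1 to 15 in Tibial-SNI, from 2 to 8 in both, from 3 to 9 between the levels and from 2 to 17 in the interaction. The methods' t-test between the SNI groups, one-tailed at their threshold of 0.09, passed 17 miRs, or 1 after Benjamini-Hochberg adjustment, and gave the members a p from 0.110 to 0.441. The smallest exact permutation p of a member, two-sided, was 0.229 over 5 comparisons. Against Sham and between the levels these tests shuffled arrays without regard to the replicate numbers, so the shift between the numbers was part of their spread.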
